A study of Homo sapiens with 12 samples.

Results

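The 9 genes described here set how readily a cell enters apoptosis, and were read from the symbol rows of 12 RNA-seq libraries that list 55765 symbols each. They are the death receptor genes TNFRSF10A, TNFRSF10B, TNFRSF10D and FAS, the BH3-only genes BBC3, PMAIP1 and BCL2L11, and the survival genes BCL2L1 and MCL1. All 9 of the 55242 genes left after removal of rRNA genes passed the filter on low counts in every comparison. The libraries come from Hs578T, a human TNBC line, transduced with lentiviral vectors for GFP (the control) or for full-length NRF2, the transcription factor that drives antioxidant genes. Cells were kept for 8 h in medium with 0.8 mM cystine (Cyss) or without it, which gives 4 groups of 3 libraries: GFP with Cyss, GFP without Cyss, NRF2 with Cyss and NRF2 without Cyss. All 4 groups are a single line that carries a lentiviral vector, and both media contained methionine, glutamine and serum. Nothing in the labels or methods says whether the 3 libraries of a group came from separate cultures, so the p-values measure the spread between these libraries, which may be technical.

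Death receptors are surface proteins that, once bound by a ligand of the TNF family, recruit the adaptor FADD and a caspase and so start the extrinsic route of apoptosis. The intrinsic route runs through mitochondria. There, survival proteins such as the products of BCL2L1 (BCL-xL) and MCL1 hold the pore-forming proteins BAX and BAK1 in check, and BH3-only proteins oppose the survival proteins. Stress raises BH3-only genes and TNFRSF10B in many cell types, and the balance between the groups is one of the factors that decide whether a stressed cell dies.

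Promoters are shown for 3 of the genes that the comparisons below turn on and whose windows were examined. PMAIP1 was called higher without Cyss in both lines, and BCL2L1 was called higher in NRF2 cells. BCL2L11 was called lower in NRF2 cells, though not in most fits that left out a library. No window of TNFRSF10A, TNFRSF10B, TNFRSF10D or MCL1 was examined, so nothing is said here about their promoters. RefSeq windows of 300 bases (250 before to 50 after the start, GRCh38.p14, the gene's own strand) were matched for 5 of the 9 genes, with 8 windows in all. BCL2L1 has 2 windows, of which the one holding matches is printed. Capitals mark matches on either strand of any of 4 motifs: CARE (TGATGNAA, the kind of element bound by ATF4), CRE (TGACGTCA), ARE (TGACNNNGC, the kind bound by NRF2) and the CRE core (TGACG), which lies within every CRE and can overlap an ARE.
PMAIP1, chr18:59899746-59900045, plus strand: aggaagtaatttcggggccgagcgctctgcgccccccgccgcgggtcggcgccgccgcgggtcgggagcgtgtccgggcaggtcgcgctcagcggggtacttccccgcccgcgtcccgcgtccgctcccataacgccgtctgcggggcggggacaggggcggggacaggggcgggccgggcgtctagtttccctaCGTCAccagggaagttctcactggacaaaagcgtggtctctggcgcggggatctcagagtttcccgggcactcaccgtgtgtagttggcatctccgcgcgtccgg
BCL2L1, chr20:31723914-31724213, minus strand: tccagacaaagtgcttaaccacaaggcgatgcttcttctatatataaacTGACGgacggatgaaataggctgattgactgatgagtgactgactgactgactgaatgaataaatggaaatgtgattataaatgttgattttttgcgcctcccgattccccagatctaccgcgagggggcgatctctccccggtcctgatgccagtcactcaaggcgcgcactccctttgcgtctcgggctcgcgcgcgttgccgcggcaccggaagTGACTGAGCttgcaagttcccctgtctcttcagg
BCL2L11, chr2:111120664-111120963, plus strand: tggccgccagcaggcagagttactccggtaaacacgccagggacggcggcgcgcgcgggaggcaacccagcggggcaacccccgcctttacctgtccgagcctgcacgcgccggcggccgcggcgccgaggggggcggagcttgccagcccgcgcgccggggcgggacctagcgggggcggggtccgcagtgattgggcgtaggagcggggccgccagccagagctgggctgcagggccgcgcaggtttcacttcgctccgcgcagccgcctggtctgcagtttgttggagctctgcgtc
The PMAIP1 window held 1 CRE core and none of the other motifs. The printed BCL2L1 window held 1 CRE core and 1 ARE, its other window no match, and the BCL2L11 window no match. FAS, which was not called in any comparison, also held an ARE, the same match in overlapping windows not printed here. The BBC3 window held no match. Of the 35116 windows in the table, 24.6% held a CRE core, 13.3% an ARE, 3.62% a CARE and 1.85% a CRE. These matches are descriptions of letters, since the libraries do not measure binding.

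Each library held between 27250993 and 44596870 reads on genes. NFE2L2, which encodes NRF2, lay between 196 and 250 CPM (reads per 1000000, scaled by TMM over all 12 libraries) in the 6 NRF2 libraries and between 109 and 139 CPM in the 6 GFP libraries, as labelled. The libraries do not measure NRF2 protein. The study reports that the full-length protein, unlike a form lacking the N-terminal part, was sensitive to Cyss deprivation. The labels call the line epithelial. Of 7 epithelial markers, EPCAM, KRT19, CLDN3 and CLDN7 had group means of at most 0.0722 CPM and CDH1 of at most 0.321 CPM, whereas KRT8 had 4.95 to 6.09 CPM and KRT18 went from 29.4 to 38.5 CPM in GFP cells and from 23.8 to 37.7 CPM in NRF2 cells on removal of Cyss. VIM, which marks mesenchymal cells, had group means from 4329 to 4728 CPM. The part of KRT18-expressing cells in the changes without Cyss was not tested. On the first principal component, which held 36.5% of the variance, the third GFP library without Cyss (replicate 3) had a score of 4.67. The rest of its group had -7.41 and -5.07. Its score lay between those and the NRF2 libraries without Cyss (20.62 to 22.84), closer to its own group. The log2FC values in GFP cells, between the lines without Cyss and in the interaction use GFP without Cyss replicate 3, and are also given without it. For TNFRSF10A, TNFRSF10B, TNFRSF10D, PMAIP1, BCL2L1 and MCL1, the interaction without it was the highest of the 12 fits that left out 1 library. By a chi-square per degree of freedom (genes with at least 20 reads in a pair), replicates differed most in NRF2 cells without Cyss. It was 13.0 there for replicates 1 and 3, and at most 7.08 in the other groups. NRF2 without Cyss replicate 1 also had the highest share of reads on no gene feature, 7.84%, against 5.82% to 6.69% in the other libraries. It was the lowest of its group for TNFRSF10A, TNFRSF10B, TNFRSF10D, PMAIP1, BCL2L1 and MCL1. Whether that share bears on these levels was not tested. Since the RNA was taken from whole cultures, fewer cells that express a gene and less RNA per cell cannot be told apart.

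Per kb of merged exon (GENCODE 44 on GRCh37), the level in GFP cells with Cyss was highest for MCL1, at 44.4 ± 1.5 CPM per kb (SD, n = 3). TNFRSF10D followed at 40.9 ± 0.884, TNFRSF10B at 24.2 ± 0.249, BCL2L1 at 16.8 ± 0.390, PMAIP1 at 12.4 ± 1.30 and FAS at 10.4 ± 0.282 CPM per kb. The lowest levels per kb were those of TNFRSF10A at 2.75 ± 0.164, BCL2L11 at 0.836 ± 0.0653 and BBC3 at 0.442 ± 0.115. No neighbours in this order overlapped among the 3 libraries. In NRF2 cells without Cyss, MCL1 was again first, at 61.6 ± 4.25 CPM per kb, and PMAIP1 stood before BCL2L1, at 35.8 ± 4.19 against 22.9 ± 0.841. There the libraries of TNFRSF10D overlapped those of TNFRSF10B, those of TNFRSF10B overlapped those of PMAIP1, and BCL2L11 overlapped BBC3. The exon length counts every annotated isoform, and which isoforms the cells made was not measured.

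**Figure D1:**
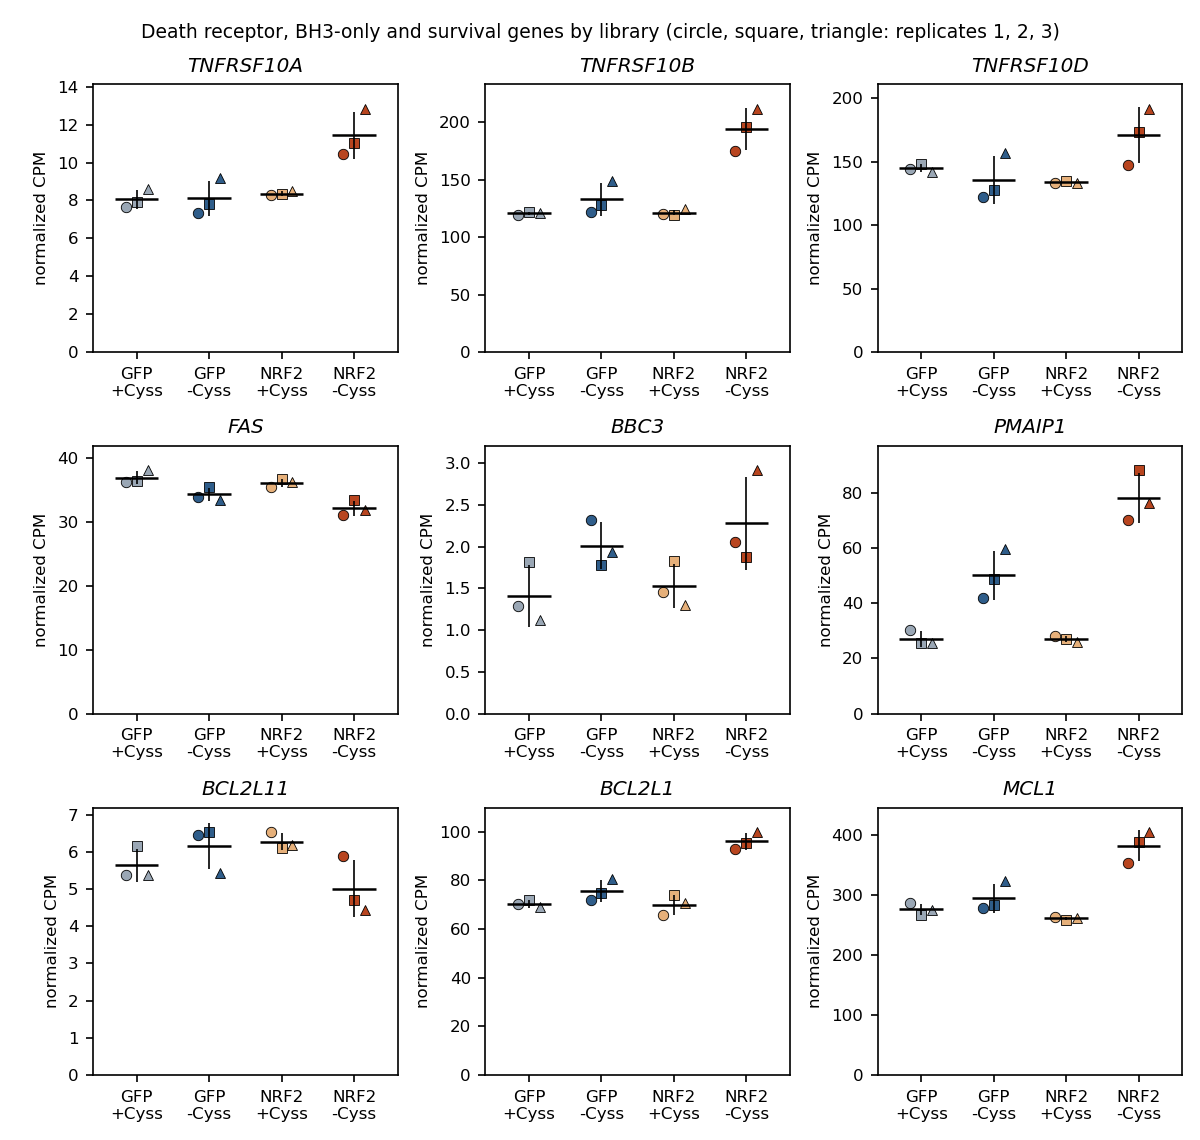
Normalized CPM of each gene (y axis, linear from 0) in the 12 libraries, by group (x axis; +Cyss and -Cyss are with and without Cyss). Points are libraries, with circle, square and triangle for replicates 1, 2 and 3, horizontal lines are means and vertical lines SDs over n = 3. PMAIP1 is higher without Cyss in both lines, and 7 of the panels have their highest mean in NRF2 cells without Cyss, whereas FAS and BCL2L11 have their lowest means there.

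The effect of Cyss deprivation on the 9 genes was asked separately in GFP cells and in NRF2 cells, the effect of NRF2 separately with and without Cyss, and the difference between the responses of the lines as an interaction. A differentially expressed gene (DEG) had an adjusted p under 0.1 (edgeR, quasi-likelihood test, Benjamini-Hochberg over all genes tested) and a log2FC above 0.32 in size. Such a p is meant by "adjusted p" throughout. An exact permutation test (two-sided) of 3 libraries against 3 cannot give a p under 0.1, so it could not pass 0.05 for any gene.

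In GFP cells, 1 of the 9 genes was a DEG without Cyss, PMAIP1, and it was upregulated. Over all 17452 genes tested, 1.57% were upregulated and 0.533% downregulated DEGs. The median log2FC was 0.10 over the 9 genes and 0.00153 over all genes tested. In NRF2 cells, 8 of the 9 were DEGs without Cyss, 7 of them upregulated and BCL2L11 downregulated, where 6.81% of 17266 genes were upregulated and 5.14% downregulated DEGs. The median log2FC there was 0.45 over the 9 genes and -0.0116 over all genes.

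With Cyss, none of the 9 was a DEG between NRF2 and GFP cells by edgeR's test, nor by DESeq2's Wald test, against 1.36% of 17449 genes higher and 0.201% lower in NRF2 cells. By unadjusted p under 0.05 there were differences in TNFRSF10D and MCL1, with log2FC values of -0.12 and -0.08. Without Cyss, 6 of the 9 were higher in NRF2 cells and none was a lower DEG, against 5.98% of 17297 genes higher and 4.09% lower. In the interaction test a call needs an adjusted p under 0.1 alone. By it, 6 of the 9 had a higher and 1, BCL2L11, a lower log2FC without Cyss in NRF2 than in GFP cells. The shares over all 17674 genes were 8.97% and 6.13%. The comparisons of NRF2 cells by medium and of both lines without Cyss share the 3 NRF2 libraries without Cyss, and the comparison in GFP cells shares libraries with both comparisons between the lines.

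**Figure D2:**
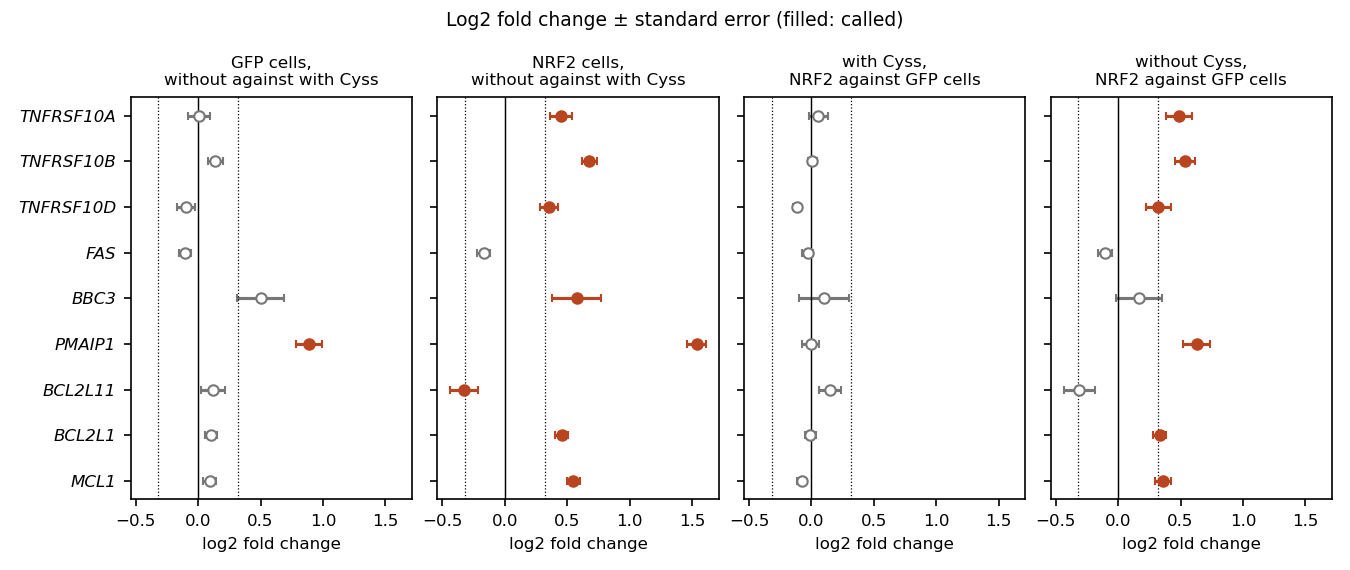
Log2FC (x axis) of the 9 genes (y axis) in the 4 comparisons, with bars of 1 standard error from edgeR's fit on 3 against 3 libraries. Filled points are DEGs and dotted lines mark log2FC values of -0.32 and 0.32. GFP cells show 1 filled point, PMAIP1 at 0.89, the comparison with Cyss none, NRF2 cells 8 and the comparison without Cyss 6.

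Among the death receptors, TNFRSF10B (GRCh37 chromosome 8, 22877646 to 22926544, minus strand) encodes DR5, a receptor of TRAIL with a death domain that stress pathways are known to raise. It had 120, 122 and 121 CPM in replicates 1, 2 and 3 of GFP cells with Cyss and 122, 128 and 149 CPM without. In NRF2 cells it had 121, 120 and 124 CPM with Cyss and 175, 196 and 212 CPM without. The 3 NRF2 libraries without Cyss were above the other 9, and the GFP groups overlapped. Its log2FC without Cyss was 0.68 in NRF2 cells (standard error 0.0598, adjusted p = 1.15e-06) and 0.14 in GFP cells (standard error 0.0603, adjusted p = 0.258), where it was 0.05 without GFP without Cyss replicate 3. Between the lines without Cyss it was higher in NRF2 cells by a log2FC of 0.53 (adjusted p = 0.00112), and the interaction was 0.54 (standard error 0.0942, adjusted p = 0.00193). Leaving out GFP without Cyss replicate 3 gave 0.63 for both.

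TNFRSF10A (chromosome 8, 23047965 to 23082615, minus strand) encodes DR4, the other TRAIL receptor with a death domain. Its level per kb was far below that of TNFRSF10B, and each library held 228 to 436 of its reads. It had 7.66, 7.90 and 8.59 CPM in GFP cells with Cyss, 7.36, 7.84 and 9.16 CPM without, and 8.27, 8.33 and 8.49 CPM in NRF2 cells with Cyss. NRF2 cells without Cyss had 10.4, 11.0 and 12.8 CPM, all above the other 9 libraries. The log2FC without Cyss was 0.45 in NRF2 cells (standard error 0.0876, adjusted p = 0.00186) and 0.01 in GFP cells (standard error 0.0895, adjusted p = 0.971), or -0.08 without GFP without Cyss replicate 3. Between the lines without Cyss it was 0.48 higher in NRF2 cells (adjusted p = 0.00786), or 0.58 when that library was left out. The interaction of 0.44 (adjusted p = 0.0399) was no longer called without GFP without Cyss replicate 1 (0.37, adjusted p = 0.111) or replicate 2 (0.42, adjusted p = 0.113), and was 0.54 without replicate 3.

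TNFRSF10D (chromosome 8, 22993101 to 23021540, minus strand) encodes a TRAIL receptor with a truncated death domain, often described as a decoy. In NRF2 cells it had 133, 134 and 133 CPM with Cyss and 147, 173 and 192 CPM without. Its log2FC there was 0.35 (standard error 0.0708, adjusted p = 0.00234). Without NRF2 without Cyss replicate 3 that log2FC was 0.26 and below the fold change threshold. In GFP cells it had 145, 148 and 142 CPM with Cyss and 122, 127 and 157 CPM without. GFP without Cyss replicate 3 was above its group with Cyss and above 1 of the NRF2 libraries without Cyss, so the groups overlapped in both comparisons. The log2FC in GFP cells was -0.10 (adjusted p = 0.511) and, without that library, -0.21 (adjusted p = 0.0213), below the fold change threshold in size. Between the lines without Cyss, TNFRSF10D was barely past the threshold, with a log2FC of 0.32 (standard error 0.0987, adjusted p = 0.0378), and the call was lost without any of 4 of the 6 libraries, namely NRF2 without Cyss replicates 2 or 3 and GFP without Cyss replicates 1 or 2 (log2FC from 0.23 to 0.32). Its interaction was 0.45 (adjusted p = 0.0219). Without GFP without Cyss replicate 3 these values were 0.44 and 0.57.

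FAS (chromosome 10, 90750414 to 90775542, plus strand), the receptor of FAS ligand, was the death receptor with no call. It had 36.3, 36.3 and 38.0 CPM in GFP cells with Cyss against 33.9, 35.5 and 33.5 CPM without, and 35.4, 36.7 and 36.3 CPM in NRF2 cells with Cyss against 31.1, 33.4 and 31.9 CPM without. The groups with and without Cyss did not overlap in either line. The log2FC was -0.11 in GFP cells (adjusted p = 0.258) and -0.17 in NRF2 cells (standard error 0.0533, adjusted p = 0.0336), which is short of the fold change threshold. Without GFP without Cyss replicate 3 the values were -0.09 in GFP cells and -0.08 in the interaction. With all libraries the interaction was -0.06, with a 95% interval from -0.19 to 0.07. FAS shares exon bases on the opposite strand with ACTA2 (380 bases, 10.7% of its merged exon). It also shares them with ENSG00000286116, an RNA not listed under that name (917 bases, 25.7%). Counting ignored strand, so reads on the shared bases cannot be told apart. Those that fit both FAS and ACTA2, which are both listed, would be counted on neither gene.

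TNFRSF10A, TNFRSF10B and TNFRSF10D lie close together on chromosome 8, with TNFRSF10C between them, and are related in sequence. Reads that fit more than 1 place were not counted on any gene, so the levels of these genes may be low where their sequences are alike. Within each library the ratio of TNFRSF10B to TNFRSF10D reads was 0.837 ± 0.0158 in GFP cells with Cyss, 0.985 ± 0.0294 in GFP cells without, 0.910 ± 0.0226 in NRF2 cells with Cyss and 1.14 ± 0.0408 in NRF2 cells without (SD, n = 3 each). The groups did not overlap in any of the 4 comparisons. This ratio needs no scaling between libraries. Each exact permutation p was 0.1, the smallest possible, and 0.182 after Benjamini-Hochberg adjustment over the 20 ratio comparisons made.

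Among the BH3-only genes, PMAIP1 (chromosome 18, 57567228 to 57571537, plus strand) encodes NOXA, a protein that binds MCL1 above all. It changed most of the 9 genes. GFP cells had 30.4, 25.5 and 25.5 CPM with Cyss and 42.1, 48.8 and 59.8 CPM without. NRF2 cells had 28.1, 26.9 and 25.9 CPM with Cyss and 70.3, 88.3 and 76.3 CPM without. No library without Cyss overlapped one with Cyss, and no NRF2 library without Cyss overlapped a GFP library without Cyss.

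The log2FC of PMAIP1 without Cyss was 0.89 in GFP cells (standard error 0.107, adjusted p = 0.000278), the 87th highest of 17452, and 1.54 in NRF2 cells (standard error 0.0742, adjusted p = 2.99e-09), the 62nd highest of 17266. These are 1.85-fold and 2.90-fold changes. In the medium without Cyss it was 0.63 higher in NRF2 cells (adjusted p = 0.00249), while with Cyss the log2FC was -0.01 with a 95% interval from -0.14 to 0.12. The interaction of 0.65 had a standard error of 0.147 and an adjusted p of 0.0105. Leaving out GFP without Cyss replicate 3, the highest PMAIP1 library of its group, gave 0.74 in GFP cells (adjusted p = 0.000160), 0.78 between the lines without Cyss and an interaction of 0.80 (adjusted p = 0.000406). PMAIP1 kept its call in each fit that left out 1 library, in all 4 comparisons or tests in which it was called.

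BBC3 (chromosome 19, 47724079 to 47736023, minus strand) encodes PUMA, best known as a p53 target. It was the least abundant of the 9, with 40 to 99 reads per library. GFP cells had 1.29, 1.82 and 1.12 CPM with Cyss and 2.32, 1.78 and 1.93 CPM without, and NRF2 cells had 1.45, 1.82 and 1.31 CPM with Cyss and 2.06, 1.87 and 2.91 CPM without. The GFP groups overlapped and the NRF2 groups did not, by a narrow margin. The log2FC was 0.50 in GFP cells (standard error 0.189, adjusted p = 0.180) and 0.58 in NRF2 cells (standard error 0.198, adjusted p = 0.050), and only the second was called. That call was lost without NRF2 with Cyss replicate 1 (0.54, adjusted p = 0.134) or replicate 3 (0.47, adjusted p = 0.198), or NRF2 without Cyss replicate 3 (0.36, adjusted p = 0.191). Conversely, BBC3 passed in GFP cells without GFP with Cyss replicate 2 (0.75, adjusted p = 0.0658). The interaction was 0.08 with a 95% interval from -0.50 to 0.65, and its sign turned in 4 of 12 fits that left out a library. Without GFP without Cyss replicate 3, BBC3 had 0.53 in GFP cells and an interaction of 0.05.

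BCL2L11 (chromosome 2, 111876955 to 111926021, plus strand) encodes BIM and was the only one of the 9 called lower, since FAS did not reach the fold change threshold. NRF2 cells had 6.53, 6.10 and 6.17 CPM with Cyss and 5.89, 4.70 and 4.45 CPM without, with no overlap. GFP cells had 5.38, 6.15 and 5.39 CPM with Cyss and 6.46, 6.53 and 5.43 CPM without, with overlap. The log2FC was -0.33 in NRF2 cells (standard error 0.113, adjusted p = 0.0522) and 0.12 in GFP cells (standard error 0.0976, adjusted p = 0.558), with an interaction of -0.44 (adjusted p = 0.0747). Without Cyss the log2FC between the lines was -0.31 (adjusted p = 0.0970), just short of the fold change threshold, and it was called without GFP without Cyss replicate 3 (-0.39, adjusted p = 0.0647), as it was without NRF2 without Cyss replicate 1 (-0.43, adjusted p = 0.0274). In GFP cells the value without GFP without Cyss replicate 3 was 0.20. These calls were fragile: the one in NRF2 cells was lost in 5 of 6 fits that left out a library, each save the one without NRF2 without Cyss replicate 1, with log2FC values from -0.45 to -0.24 over the 6, and that of the interaction in 9 of 12. The interaction was called without GFP without Cyss replicate 3 (-0.52, adjusted p = 0.0352), GFP with Cyss replicate 2 or NRF2 without Cyss replicate 1. BCL2L11 had 151 to 277 reads per library and shares 727 exon bases (10.8%) with MIR4435-2HG on the opposite strand.

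The survival genes BCL2L1 and MCL1 moved together. MCL1 (chromosome 1, 150533371 to 150552214, minus strand), whose short-lived protein is the main partner of NOXA, had 286, 268 and 275 CPM in GFP cells with Cyss and 279, 284 and 323 CPM without. NRF2 cells had 264, 260 and 261 CPM with Cyss and 354, 389 and 406 CPM without, the latter above all other libraries. The log2FC was 0.55 in NRF2 cells (standard error 0.0505, adjusted p = 1.71e-06) and 0.09 in GFP cells (standard error 0.0522, adjusted p = 0.366). Without Cyss MCL1 was 0.36 higher in NRF2 than in GFP cells (adjusted p = 0.00299), and the interaction was 0.45 (standard error 0.0775, adjusted p = 0.00161). Without GFP without Cyss replicate 3 the values were 0.03 in GFP cells, 0.43 between the lines and 0.52 in the interaction.

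BCL2L1 (chromosome 20, 30252255 to 30311792, minus strand) had 70.4, 72.2 and 68.9 CPM in GFP cells with Cyss and 71.8, 74.8 and 80.6 CPM without. In NRF2 cells it had 65.7, 73.9 and 70.5 CPM with Cyss and 93.0, 95.4 and 100.0 CPM without, again above all other libraries. The log2FC was 0.45 in NRF2 cells (standard error 0.0525, adjusted p = 1.72e-05) and 0.10 in GFP cells (adjusted p = 0.279), with an interaction of 0.35 (standard error 0.0725, adjusted p = 0.00561). The difference of 0.33 between the lines without Cyss (adjusted p = 0.00183) was close to the fold change threshold and fell short of it without NRF2 without Cyss replicate 3 (0.30) or GFP without Cyss replicate 1 (0.29). Without GFP without Cyss replicate 3 BCL2L1 had 0.06 in GFP cells, 0.38 between the lines and 0.40 in the interaction. Counts per gene do not separate the long BCL2L1 and MCL1 isoforms, which protect cells, from the short ones, which do not. BCL2L1 also shares 1735 exon bases, 41.3% of its merged exon, with the antisense RNA ABALON, which is not listed under that symbol.

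Ratios within a library set the groups against each other. The ratio of PMAIP1 to MCL1 reads was 0.0980 ± 0.00718 in GFP cells with Cyss, 0.169 ± 0.0172 in GFP cells without, 0.103 ± 0.00360 in NRF2 cells with Cyss and 0.204 ± 0.0201 in NRF2 cells without. It was thus higher without Cyss in both lines, by 1.72-fold and 1.98-fold, with no overlap. The ratio of BCL2L11 to BCL2L1 reads was 0.0799 ± 0.00461 and 0.0816 ± 0.0124 in GFP cells with and without Cyss, which overlapped, and 0.0898 ± 0.00862 and 0.0523 ± 0.00979 in NRF2 cells, which did not. The ratio of MCL1 to BCL2L1 reads lay between 3.75 and 3.98 in the group means, and the groups overlapped in all 4 comparisons. None of these ratios could pass the exact permutation test, for which the smallest p is 0.1 (0.182 after adjustment over the 20 comparisons).

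**Figure D3:**
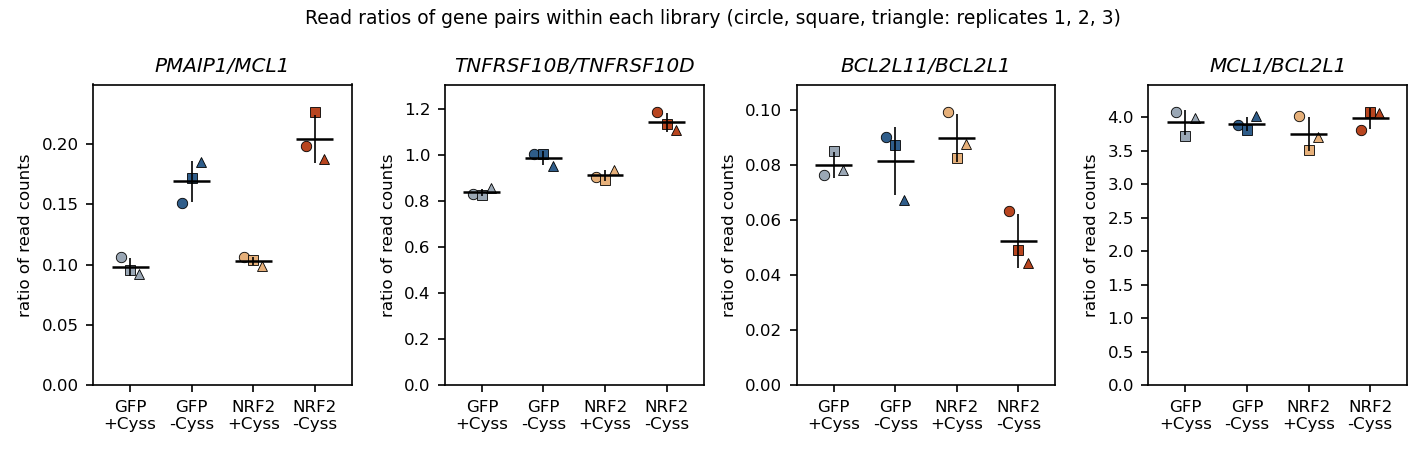
Ratio of read counts of a pair of genes (y axis, linear from 0) within each library, by group (x axis), with means and SDs over n = 3 and circle, square and triangle for replicates 1, 2 and 3. PMAIP1 to MCL1 rises from about 0.1 with Cyss to group means of 0.169 and 0.204 without, BCL2L11 to BCL2L1 is lowest in NRF2 cells without Cyss, and MCL1 to BCL2L1 overlaps between all groups.

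Over the 12 libraries, log2 CPM of TNFRSF10B correlated with that of MCL1 (Pearson's r = 0.981), BCL2L1 (0.974), TNFRSF10A (0.952) and PMAIP1 (0.900), and negatively with FAS (-0.823) and BCL2L11 (-0.766). BCL2L11 was most negatively correlated with TNFRSF10D (-0.921). These values describe 12 points that fall into 4 groups and share their libraries, and most of the spread lies between NRF2 cells without Cyss and the rest. Among 13529 genes whose mean normalized count reached 50, the patterns most like TNFRSF10B were those of SOCS3 (0.996), LIF (0.996) and ITPRIP (0.995), and those most like MCL1 were HAS2 (0.992), RAI14 (0.991) and NT5E (0.991). For PMAIP1 they were JHDM1D (0.986), ZFP69B (0.984) and PRNP (0.983), for BCL2L1 SPRY2 (0.981), ADAMTS16 (0.979) and RAC2 (0.978), and for TNFRSF10A IER2, EFHD2 and IL11 (0.978 to 0.979). For TNFRSF10D they were TSPAN5, MCFD2 and RGS20 (0.952 to 0.970).

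Of 14 other receptors, ligands and complex members, 11 could be tested, and none was a DEG in GFP cells without Cyss, 1 was upregulated in NRF2 cells, 1 was higher in NRF2 cells with Cyss and 2 without Cyss, and none was lower. The shares over all genes were 1.57%, 6.81%, 1.36% and 5.98% higher, against 0 to 2 of 11 here. In the interaction TNFRSF21 (0.41) and TNFRSF11B (0.22) were called higher, 2 of the 11, against 8.97% of all genes. TNFRSF21, a death domain receptor, rose in NRF2 cells from 703 to 915 CPM (group means, log2FC 0.38, adjusted p = 8.68e-06) and was 0.55 higher than in GFP cells without Cyss (adjusted p = 0.000129). TNFRSF11B, a soluble decoy of TRAIL and RANKL, was 0.33 higher in NRF2 cells without Cyss (adjusted p = 0.00286), and TNFRSF25 was 0.36 higher with Cyss (adjusted p = 0.0327). The ligand genes were the 3 not tested, named here after their values were seen. TNFSF10, which encodes TRAIL, had group means from 0.0309 to 0.0891 CPM, TNF from 0.0564 to 0.107 CPM, and no read was counted on FASLG in any of the 12 libraries, which allows up to 0.109 CPM in the shallowest library by counting error alone.

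Of 14 other BCL2 family genes, 10 could be tested in NRF2 cells, where 1 was up- and 1 downregulated without Cyss, and 9 in GFP cells, where none was a DEG. Over all genes 6.81% were up- and 5.14% downregulated in NRF2 cells, so 1 of 10 each way is near the background. BMF, another BH3-only gene, fell in NRF2 cells from 8.43 to 5.37 CPM (log2FC -0.66, adjusted p = 0.000323) and was 0.40 lower on the log2 scale than in GFP cells without Cyss (log2FC -0.40, adjusted p = 0.0567), the same direction as BCL2L11. BCL2A1, a survival gene, was called higher in NRF2 cells without Cyss than with it (log2FC 1.29, adjusted p = 0.0466) and than in GFP cells (1.33, adjusted p = 0.0947), at 0.385 CPM or less in every group mean. BCL2A1 passed the filter on low counts only through NRF2 cells without Cyss, the group where it was highest. Its calls are therefore no support for a rise, and its libraries without Cyss overlapped between the lines. In the interaction, 3 of the 10 tested, BAD (-0.31), BMF (-0.63) and BOK (-0.20), were called lower and 1, BCL2L2 (0.24), higher. The shares over all genes there were 6.13% lower and 8.97% higher.

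Of 13 genes of the apoptosome, executioner caspases and their inhibitors, all were tested. The only DEG was BIRC3, an inhibitor of apoptosis, which rose in NRF2 cells without Cyss from 10.3 to 15.1 CPM (log2FC 0.55, adjusted p = 0.000119) and was 0.48 higher than in GFP cells without Cyss (adjusted p = 0.00412). Over all genes tested, 6.81% were upregulated in NRF2 cells and 5.98% were higher than in GFP cells without Cyss, so 1 of 13 is near the background. In the interaction 4 of the 13 were called higher, the inhibitors BIRC3 (0.77), XIAP (0.34), BIRC2 (0.33) and BIRC6 (0.28), and 1, BIRC5 (-0.15), was called lower. There the shares over all genes were 8.97% and 6.13%.

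Among 15 regulators known to act on these genes, of which 14 were tested, 4 were upregulated DEGs in GFP cells and 5 in NRF2 cells without Cyss, against 1.57% and 6.81% of all genes, and ATF4, TRIB3 and CEBPB were in both counts. None was a downregulated DEG. E2F1, named after its values were seen, had log2FC values of -0.19 (adjusted p = 0.0523) and -0.24 (adjusted p = 0.00771), short of the fold change threshold. ATF4, the effector of the amino acid response and a known activator of PMAIP1, rose from 222 to 397 CPM in GFP cells (log2FC 0.84, adjusted p = 1.04e-08) and from 214 to 353 CPM in NRF2 cells (log2FC 0.72, adjusted p = 9.01e-07). TRIB3, one of its targets, had log2FC values of 1.03 and 0.84. Without Cyss, ATF4 had 353 CPM in NRF2 and 397 CPM in GFP cells, with no overlap. That log2FC was -0.18 (adjusted p = 0.0573), short of the fold change threshold. PMAIP1 was higher in NRF2 cells there, by a log2FC of 0.63. DDIT3, which encodes CHOP, a known activator of TNFRSF10B, rose in GFP cells (log2FC 0.66, adjusted p = 5.04e-05) and had a log2FC of 0.32 in NRF2 cells (adjusted p = 0.00729), just short of the fold change threshold. Between the lines without Cyss it was lower in NRF2 cells, at 21.5 against 27.5 CPM (log2FC -0.36, adjusted p = 0.00344), with an interaction of -0.35 (adjusted p = 0.0467). TNFRSF10B had the opposite order. JUN, an AP-1 subunit, rose in NRF2 cells from 157 to 275 CPM (log2FC 0.81, adjusted p = 6.65e-08), and MYC from 81.2 to 131 CPM (0.69, adjusted p = 6.49e-08). In GFP cells MYC had a log2FC of 0.31 (adjusted p = 0.0118), also just short of the threshold, with no overlap between the groups. JUN and MYC were also higher than in GFP cells without Cyss, by 0.74 (adjusted p = 0.000858) and 0.50 (adjusted p = 0.000540), and CEBPB by 0.42 (adjusted p = 0.00147). Whether any regulator acted on the 9 genes was not tested.

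**Figure D4:**
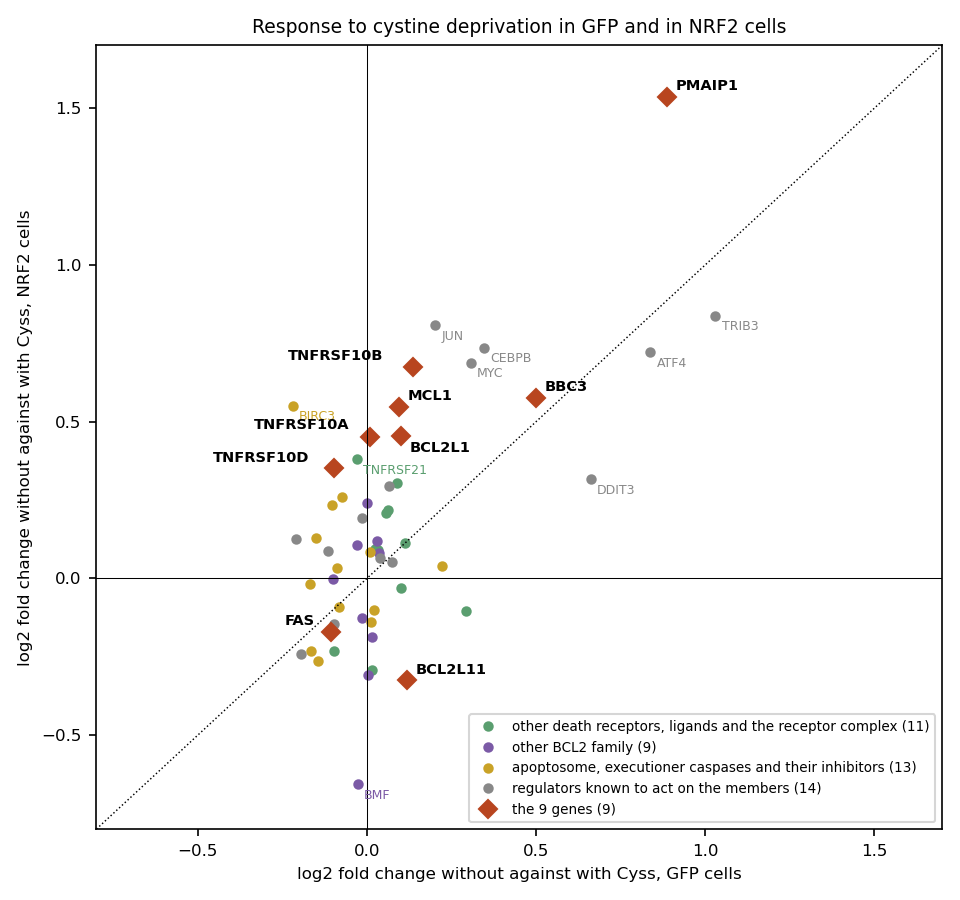
Log2FC without against with Cyss in NRF2 cells (y axis) against that in GFP cells (x axis), for the 9 genes (diamonds) and the genes of 4 lists that were tested in both lines (circles, numbers in the key); small labels name DEGs of either line. PMAIP1 is at the upper right, TNFRSF10A, TNFRSF10B, TNFRSF10D, BCL2L1 and MCL1 lie near 0 in GFP cells and from 0.35 to 0.68 in NRF2 cells, and DDIT3, ATF4 and TRIB3 lie below the dotted line of equal change; BCL2A1 was tested in NRF2 cells alone and is not drawn.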

How the data were processed

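RNA of Hs578T cells from TruSeq libraries was sequenced single end by the authors, who mapped the reads to hg19 with TopHat2 2.1.0 and counted them on exons with HTSeq 0.11.2 without regard to strand. The annotation version is not given in the sources used here. The deposited values are raw counts per gene symbol in 12 tables, and the authors' own normalization was not used.

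Here, 523 genes named as rRNA and 5 HTSeq counters were removed, which leaves 55242 genes. Counts were scaled by TMM within each comparison, only genes whose mean normalized count reached 10 in 1 of the groups were tested, and edgeR 4.0.16 (R 4.3.3, limma 3.58.1) quasi-likelihood tests with Benjamini-Hochberg adjustment were applied to 6 libraries, or to 12 for the interaction. The study's methods name DESeq2, which was an alternative (1.42.0). Scripts were tested on simulated data. CPM values use TMM over all 12 libraries. Groups come from the labels. Intervals are 95% from the standard error. Counting error alone lies behind the upper limit for a gene at 0, which is set at 3 reads.

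The 9 genes are described in every comparison, other lists by their counts and by DEGs (at most 6 a list, by log2FC), and for each DEG among the 9 the 3 most correlated genes, which for BBC3 and BCL2L11 are not reported here. The genes, lists, motifs and tests were chosen with earlier results of these data known. Read ratios within a library were added after the counts had been examined. The check of pairing by replicate number is given with the alternatives. The plots were drawn with Python 3.11.15 and matplotlib 3.10.9.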

Additional observations from a re-analysis of the deposited data

Results flagged for a closer look

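The response to Cyss deprivation was called different between NRF2 and GFP cells for 7 of the 9 genes. The test was edgeR's interaction test on 12 libraries with Benjamini-Hochberg adjustment over 17674 genes, of which 15.1% were called in either direction. Over 12 fits that left out 1 library, the call was lost in 9 for BCL2L11 and in 2 for TNFRSF10A. The other called genes kept theirs in every fit. The log2 difference of the responses was 0.44 for TNFRSF10A, 0.54 for TNFRSF10B, 0.45 for TNFRSF10D, 0.65 for PMAIP1, 0.35 for BCL2L1 and 0.45 for MCL1, each larger in NRF2 cells, and -0.44 for BCL2L11, which had a log2FC of -0.33 in NRF2 cells and 0.12 in GFP cells. Without GFP without Cyss replicate 3, which lay apart from its group on the first principal component, the differences were 0.54, 0.63, 0.57, 0.80, 0.40, 0.52 and -0.52 in that order of genes. For the genes with a larger response in NRF2 cells, these were the highest values of the 12 fits that left out 1 library. Their lowest values were 0.35, 0.47, 0.36, 0.54, 0.30 and 0.41, and BCL2L11 ranged from -0.57 to -0.36.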

How the results depend on the processing

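Of 158 counts recomputed under the alternatives, 143 stayed within 1.5 times the main count. Without the fold change threshold the numbers of DEGs were 1033 in GFP cells, 5012 in NRF2 cells, 1122 with Cyss and 4976 without Cyss, and 1 of the 9 genes, TNFRSF10D, was then called with Cyss. With no filter on low counts 2 of the 9 were called in GFP cells. DESeq2's Wald test called 104 genes with Cyss, against 272, and an adjusted p under 0.05 gave 1591 genes in the interaction, against 2669. Over fits without 1 library, the 9 genes gave 1 to 2 calls in GFP cells, 5 to 8 in NRF2 cells, 0 with Cyss, 4 to 7 without Cyss and 5 to 7 in the interaction. The count of 5 in NRF2 cells came without NRF2 without Cyss replicate 3, and that of 2 in GFP cells without GFP with Cyss replicate 2. All genes gave 273 to 439, 1763 to 2222, 160 to 307, 1190 to 2028 and 1395 to 3681 calls in the same order. Causes were not tested.

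Directions turned only where a log2FC was small. TNFRSF10A in GFP cells became -0.0033 with no filter, and -0.085 to 0.079 without 1 library (-0.020 and -0.0053 without GFP with Cyss replicates 1 and 2, -0.085 without GFP without Cyss replicate 3). With Cyss, PMAIP1 was 0.00020 when scaled by library size only, and -0.054 to 0.079 without 1 library (0.022, 0.079). TNFRSF10B was -0.0071 with no filter, and -0.011 to 0.016 without 1 library (-0.011, -0.0034). BCL2L1 lay from -0.050 to 0.031 (0.0069, 0.031) and BBC3 from -0.055 to 0.35 (-0.055, -0.038). BBC3 lay from -0.053 to 0.30 between the lines without Cyss and from -0.17 to 0.23 in the interaction (-0.035, -0.15, -0.17, -0.0064).

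Scaling by library size only moved the split of all DEGs from 1176 higher and 887 lower to 936 and 1397 in NRF2 cells, from 1034 and 708 to 876 and 1001 without Cyss, and in the interaction from 1585 and 1084 to 1124 and 1981, with a median shift of at most 0.06 on the log2 scale. TNFRSF10D then fell short in NRF2 cells (0.29) and without Cyss (0.29), BCL2L1 fell short without Cyss (0.30) and BCL2L11 passed (-0.34). TNFRSF10D was also not called without Cyss by DESeq2 (adjusted p = 0.133). Correlations of same-numbered deviations ranged from -0.083 to 0.17, and those of differently numbered ones from -0.19 to 0.081. As these ranges overlap, they do not decide whether the replicate numbers pair the libraries. With a replicate block, 1, 8, 0, 6 and 7 of the 9 genes were called in the 5 tests, and 386, 2122, 291, 1904 and 3173 genes in all.

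BBC3 had 40 to 99 reads a library, BCL2L11 151 to 277 and TNFRSF10A 228 to 436, the fewest of the 9 genes, and how far depth or spread between libraries limits each was not tested. Gene counts without strand cannot separate isoforms or antisense partners.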
